A study of Mus musculus with 8 samples.

Results

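The 6 genes described here are 3 beta subunits of the sodium pump (Atp1b1, Atp1b2 and Atp1b3), the pump's regulatory protein phospholemman (Fxyd1), and the channel subunits Kcnj10 and Kcnj16. They were taken by symbol from a table of 15035 genes, and all 6 were found and passed the filter on low values. The table comes from bulk RNA sequencing of auditory nerves dissected from mouse cochleas at postnatal day 21. Replicates 1 to 4 are wild-type mice. Replicates 5 to 8 are mice labelled as heterozygotes (+/-) of Mef2c, a MADS-box transcription factor gene, and are called Het-labelled here. Each library holds the nerves of both cochleas of 1 mouse. No sex, strain, litter, batch or details of the Mef2c allele were stated.

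The sodium pump, or Na,K-ATPase, exports sodium and imports potassium against their gradients at the cost of ATP. Its catalytic alpha subunit needs a beta subunit to fold and reach the membrane, and FXYD proteins bind the complex and tune its kinetics. When axons fire, potassium collects around them, and glia take it up through the pump and through inwardly rectifying channels built from Kir4.1 (Kcnj10), alone or together with Kir5.1 (Kcnj16). In the cochlea the pump and Kir4.1 also serve the stria vascularis, the epithelium of the lateral wall that secretes potassium into endolymph.

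Reads over the 15035 genes were estimated at 13363385 to 21507181 per library. Mef2c itself had 462 ± 50.4 normalized counts in wild type and 668 ± 66.8 in the Het-labelled libraries (SD, n = 4 each). Its adjusted p was 0.186 with limma-trend, described below, and the authors' deposited FDR was 0.0162. The transcript was thus not lower in the Het-labelled libraries. The allele is not described, so these counts cannot check the label. Every direction below is between libraries as labelled. Markers of neurons (summed 207429 to 283750 normalized counts) and of myelinating Schwann cells (102816 to 144418) were high in all 8 libraries. Spiral ligament fibrocyte markers summed to 133959 to 178113, of which Coch alone gave 100953 to 141874. Whether these transcripts came from the lateral wall was not tested. Oligodendrocyte and astrocyte markers were also present, with no marker of either list at 0. Their sums did not overlap between genotypes. Oligodendrocyte markers summed to 24069 to 29940 in wild type and 9408 to 18142 in the Het-labelled libraries. For astrocyte markers the sums were 19148 to 29193 and 9478 to 17212. Xist was at 5175 to 8615 normalized counts except in library 1 (12) and library 5 (7.6).

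Fxyd1 was the member with the clearest difference between genotypes, and it was lower in every library labelled heterozygote. Its product, phospholemman, binds the alpha and beta subunits of the pump and relieves its inhibition when phosphorylated. Wild-type replicates 1, 2, 3 and 4 had 1521.0, 1243.6, 1166.0 and 1432.5 normalized counts. Replicates 5, 6, 7 and 8 had 951.5, 852.1, 999.9 and 961.0, and this order is kept below. The groups did not overlap, and the 4 values labelled heterozygote lay close together. The means were 1341 ± 164 in wild type and 941 ± 62.9 in the Het-labelled libraries (SD, n = 4 each). The log2 fold change on log2(value + 1) was -0.50 ± 0.11 (SE), a level 0.705 times that of wild type (95% interval 0.597 to 0.832).

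The statistical support for Fxyd1 depended on the model. An exact two-sided permutation test gave 0.0286, the lowest p possible with 4 against 4. With limma-trend, a moderated linear model fitted across all genes, the unadjusted p was 0.000635, and 57 of the 14870 tested genes had a smaller one. Its Benjamini-Hochberg adjusted p was 0.160, above the threshold of 0.05. In the authors' deposited table the ratio was 0.703 and the FDR 0.00674. Of all genes tested, 0.0807% passed the limma-trend threshold, and 1.61% had an FDR under 0.05 in the authors' deposited table.

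The level of Fxyd1 was set beside 2 other measures, cell type markers and transcript length. Both astrocyte and oligodendrocyte marker sums were lower in the Het-labelled libraries, as given above. All 8 astrocyte genes had negative log2 fold changes, with a median of -0.56, and Gfap, the astrocyte intermediate filament, was at -0.99. Some markers of other cells were higher in the Het-labelled libraries. The neutrophil granule genes S100a8, S100a9 and Ngp had log2 fold changes of 4.09, 3.62 and 3.73, and Tecta, a gene of cochlear supporting cells, was at 2.91. None of these 4 overlapped between genotypes, and their BH-adjusted limma p lay between 0.0632 and 0.0920. Of the 6 supporting cell genes listed, 5 were higher and 1 lower in the Het-labelled libraries, with a median log2 fold change of 0.29. The lower one was Epyc, at -0.53. Of the summed markers, neutrophil genes ran from 106.3 to 2346 normalized counts in wild type and 649.1 to 6030 in the Het-labelled libraries, and supporting cell genes from 18622 to 23023 and 22061 to 27776. Both sums overlapped. The part of any of these cells in the Fxyd1 difference was not tested. In a bulk sample, fewer cells of a type and less RNA per cell cannot be told apart.

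The other measure was transcript length. The longest annotated Fxyd1 transcript has 668 bases. Among the 639 tested genes with a longest transcript under 1000 bases, the median log2 fold change was -0.30, against 0.017 over all 14517 genes with a known length. Of those short genes 25.5% were lower at an unadjusted limma-trend p under 0.05, against 7.25% of all genes with a length. After each library was corrected for its trend with transcript length, Fxyd1 had a log2 fold change of -0.23 and a BH-adjusted limma p of 0.421. Its adjusted p passed 0.05 in 2 of 19 alternatives. These were the fit without wild-type library 3 (BH-adjusted limma p 0.0365) and the fit that added the leading component of the residuals as a covariate (0.0243). Its direction was the same in all 19, and its unadjusted p was under 0.05 in all 19.

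**Figure D1:**
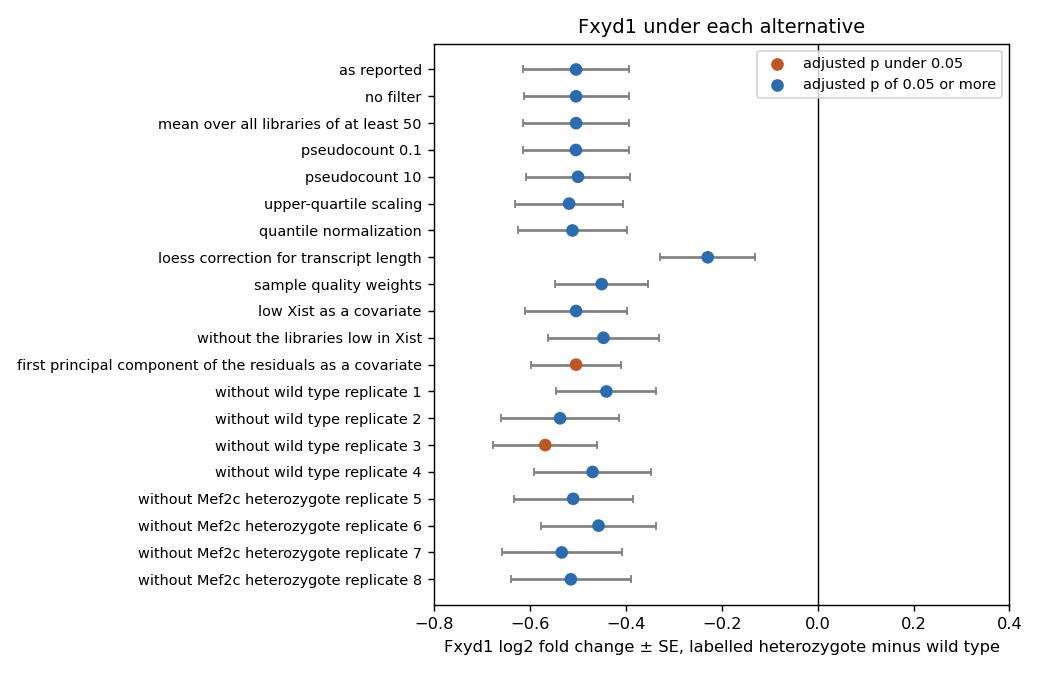
Log2 fold change of Fxyd1 (x axis, points with standard errors) in the fit as reported and in each of 19 alternatives (y axis). All points lie left of 0, from -0.57 without wild-type replicate 3 to -0.23 with the correction for transcript length, and 2 of them (orange) had a BH-adjusted limma p under 0.05.

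Fxyd1 lies on chromosome 7 at 31051678 to 31057199 of GRCm38, on the minus strand, and overlaps no other annotated gene. Because the study concerns a MEF2 factor, the 250 bases before each RefSeq promoter start found for the members were searched. Both strands were read for the MEF2 consensus motif. Promoter entries were found for 5 of the 6 members, with 9 windows in all. Fxyd1 and the first start of Kcnj16 are shown because Fxyd1 has the largest difference and the Kcnj16 window holds the 1 match found. The Fxyd1 window is chr7:31054854-31055103 on the minus strand and the Kcnj16 window chr11:110967783-110968032 on the plus strand, from RefSeq on GRCm38.p6. The Fxyd1 window lies inside the gene span given above, so the bases before the outermost annotated start of Fxyd1 were not searched. Both windows are printed 5′ to 3′ with the match in capitals.
Fxyd1: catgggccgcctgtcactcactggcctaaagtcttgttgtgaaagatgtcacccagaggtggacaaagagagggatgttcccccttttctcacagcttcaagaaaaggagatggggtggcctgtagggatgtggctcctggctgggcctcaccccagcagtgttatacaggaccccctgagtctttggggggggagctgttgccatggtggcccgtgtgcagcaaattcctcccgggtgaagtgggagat
Kcnj16: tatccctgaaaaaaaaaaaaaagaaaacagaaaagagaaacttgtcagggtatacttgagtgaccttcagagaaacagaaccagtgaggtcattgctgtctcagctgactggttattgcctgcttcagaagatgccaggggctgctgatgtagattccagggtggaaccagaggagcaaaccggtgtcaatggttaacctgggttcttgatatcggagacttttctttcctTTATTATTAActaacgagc

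The match in Kcnj16, TTATTATTAA, begins 19 bases before that start. Of 32851 promoter windows of the same length, 2.92% held the motif. The windows also differed in base composition. The Fxyd1 window has 57.2% G and C with 3 CpG dinucleotides, and the Kcnj16 window has 42.8% with 3. That of Atp1b1 has 70.4% with 24, and that of Kcnj10 has 62.0% with 17. Over all windows the medians were 52.4% and 6. A match describes only the letters of a window.

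The beta subunits differed widely in level, and their order was the same in every library once divided by length. Before that division, Atp1b2 (10220.4 normalized counts) stood above Atp1b3 (9325.4) in library 6. Per kilobase of the longest transcript, Atp1b1, the most widely expressed beta subunit and the usual partner in neurons, stood at 12296 ± 2125 normalized counts in wild type (SD, n = 4). Atp1b3, a beta subunit found in many tissues, stood at 3869 ± 614. Atp1b2, known as the adhesion molecule on glia, stood at 1392 ± 132. The ranges over the 8 libraries did not overlap: 9449 to 14511 for Atp1b1, 3307 to 4739 for Atp1b3 and 957 to 2725 for Atp1b2. Per kilobase, the average level of Atp1b1 was above that of 99.8% of tested genes with a known length.

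Atp1b1 showed no difference between genotypes beyond the spread of the libraries. The gene lies on chromosome 1 at 164437109 to 164458355 on the minus strand. The wild-type values were 24377.5, 33601.0, 37438.0 and 31481.6 normalized counts. The Het-labelled libraries had 35263.1, 35023.3, 32089.0 and 32160.8. Wild-type library 1 was the lowest of all, and the other 7 lay within 31481.6 to 37438.0. The log2 fold change was 0.10 ± 0.14 (SE), a fold of 1.07 (95% interval 0.866 to 1.33), and the BH-adjusted limma p was 0.759. Exons of Atp1b1 share 575 bases with Nme7 on the opposite strand. Whether counting used the strand is not given in the sources used here, so reads of the pair may not be separable. Nme7 was far lower, with 119.8 to 220.3 normalized counts.

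Atp1b2 was the most variable member, with a coefficient of variation of 33.9% over the 8 libraries. It lies on chromosome 11 at 69599736 to 69605942 on the minus strand. The wild-type values were 4725.2, 5857.4, 5343.0 and 4959.4 normalized counts. The Het-labelled libraries had 3591.0, 10220.4, 6040.7 and 5401.5. The lowest and the highest library, 5 and 6, were thus both labelled heterozygote, and the wild-type libraries lay between them. The log2 fold change was 0.18 ± 0.24 (SE), a fold of 1.13 (95% interval 0.789 to 1.62), with a BH-adjusted limma p of 0.745. Without library 6 it was -0.089, with a BH-adjusted limma p of 0.845.

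Atp1b3 had nearly the same mean in both genotypes. It lies on chromosome 9 at 96332655 to 96364442 on the minus strand. The wild-type values were 9449.9, 7626.3, 7146.0 and 6639.3 normalized counts, and those labelled heterozygote had 7452.7, 9325.4, 7540.2 and 6593.3. The highest values were those of wild-type library 1 and Het-labelled library 6, so each genotype held 1 high library. The log2 fold change was 0.0038 ± 0.13 (SE), a fold of 1.003 (95% interval 0.821 to 1.22), and the BH-adjusted limma p was 0.992.

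**Figure D2:**
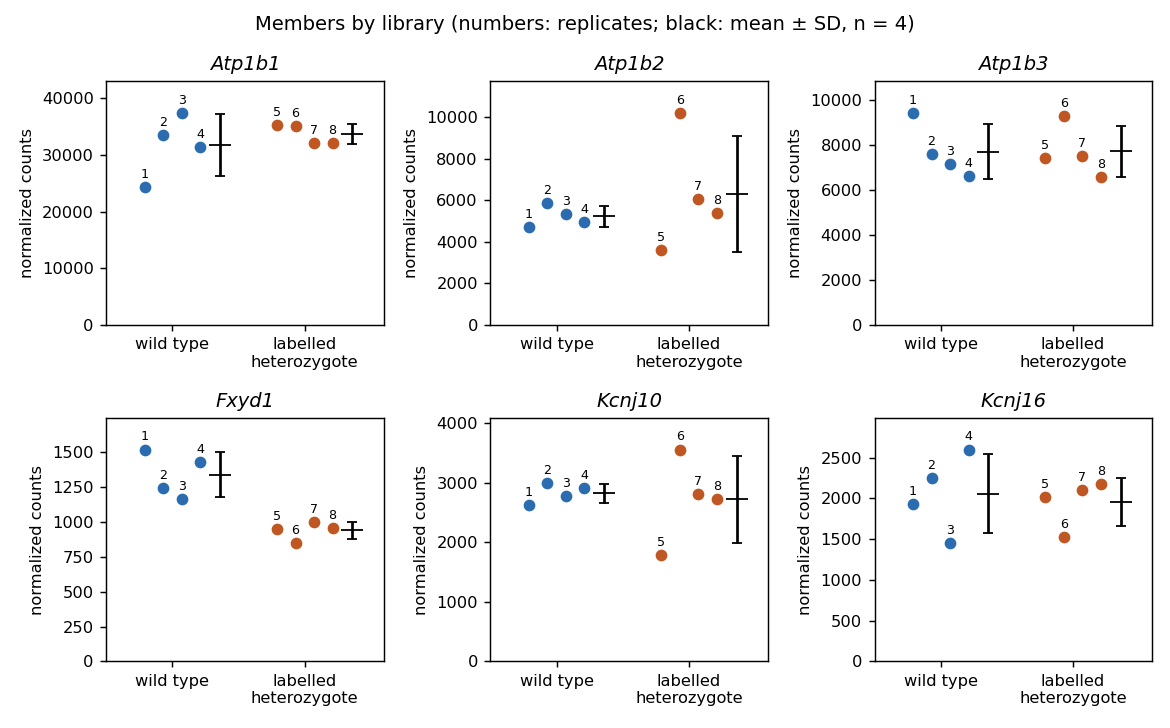
Normalized counts (y axis) of the 6 members in each wild-type (blue) and heterozygote-labelled (orange) library, with replicate numbers and, in black, the mean ± SD (n = 4). Fxyd1 is the panel in which the genotypes do not overlap (1166.0 to 1521.0 against 852.1 to 999.9). Library 6 is the highest and library 5 the lowest for Atp1b2 and Kcnj10.

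Kcnj10, which encodes the glial channel subunit Kir4.1, also did not differ between genotypes beyond the spread of the libraries. It lies on chromosome 1 at 172341210 to 172374085 on the plus strand. The wild-type libraries were close together, at 2621.5, 2994.9, 2778.3 and 2907.3 normalized counts. Those labelled heterozygote were spread on both sides of them, at 1787.9, 3561.0, 2808.3 and 2734.1. The SD was 163 in wild type and 727 in the Het-labelled libraries (n = 4 each). The log2 fold change was -0.094 ± 0.17 (SE), a fold of 0.937 (95% interval 0.728 to 1.21), and the BH-adjusted limma p was 0.814. Without Het-labelled library 5 the log2 fold change was 0.094, with a BH-adjusted limma p of 0.727.

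Kcnj16 encodes Kir5.1, which forms pH-sensitive channels with Kir4.1. It lies on chromosome 11 at 110968033 to 111027968 on the plus strand. The wild-type values were 1928.5, 2255.3, 1452.9 and 2600.5 normalized counts, and those labelled heterozygote had 2020.4, 1523.0, 2106.2 and 2175.3. Each genotype held 1 low library, wild-type library 3 and Het-labelled library 6. The log2 fold change was -0.055 ± 0.17 (SE), a fold of 0.962 (95% interval 0.744 to 1.25), and the BH-adjusted limma p was 0.898. Per kilobase, Kcnj10 and Kcnj16 were at similar levels, with 523 ± 30.1 and 556 ± 132 normalized counts in wild type (SD, n = 4 each). They could not be ranked beyond that spread.

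Among the 6 members, 0 passed the limma-trend threshold. 1 had an unadjusted p under 0.05, Fxyd1, where 14.1% of all tested genes did, and 1 did not overlap between genotypes, where 7.26% of all tested genes did not. 1 of 6 is near that background, so the count itself says nothing particular about these genes. The median log2 fold change of the members was -0.026, against 0.015 over all tested genes.

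Ratios within a library do not depend on how the library was scaled. Of 3 such ratios tested, 0 differed between genotypes. The log2 ratio of Atp1b2 to Atp1b1 was -2.59 ± 0.19 in wild type and -2.51 ± 0.62 in the Het-labelled libraries (SD, n = 4 each). For Atp1b3 to Atp1b1 it was -2.04 ± 0.46 and -2.13 ± 0.17, and for Kcnj10 to Kcnj16 0.49 ± 0.32 and 0.45 ± 0.58. The two-sided exact permutation p was 0.800 for the first and 0.886 for the other two, and 0.886 for all 3 after Benjamini-Hochberg adjustment.

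As shares of the summed per-kilobase level of the beta subunits, Atp1b1 made up 69.7% ± 5.85 in wild type and 70.3% ± 4.21 in the Het-labelled libraries (SD, n = 4 each). Atp1b3 made up 22.4% ± 5.61 and 20.8% ± 1.31. The share of Atp1b2 was 7.94% ± 0.504 and 8.90% ± 3.19, with the lowest value, 5.21%, in library 5 and the highest, 12.99%, in library 6. The balance of the channel subunits shifted most in the same libraries. Kcnj10 took 37.7% of the Kcnj10 and Kcnj16 total in library 5 and 61.5% in library 6, against 43.4% to 56.7% in the other 6.

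**Figure D3:**
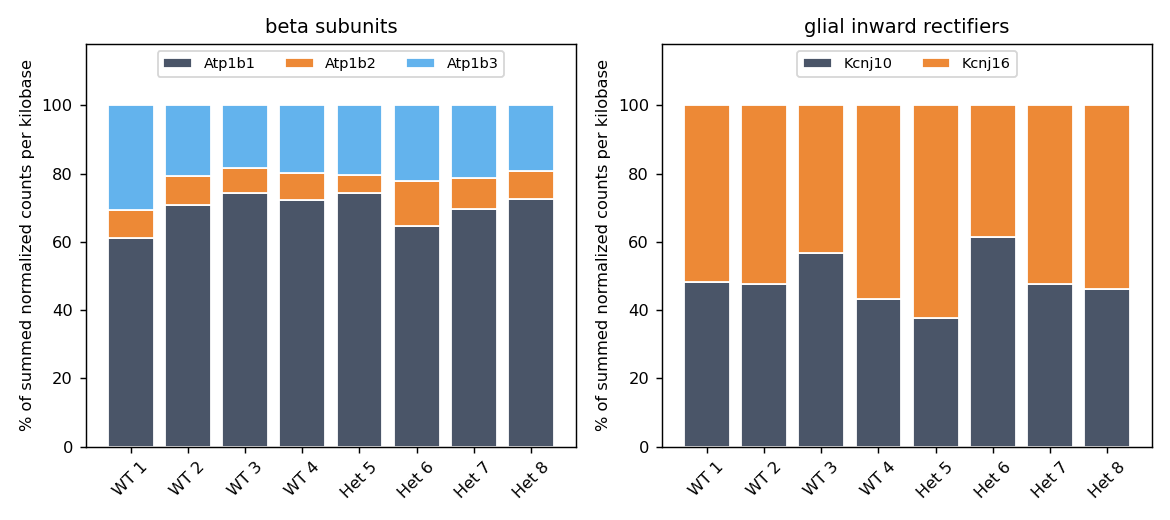
Share of the summed normalized counts per kilobase (y axis, %) taken by each beta subunit (left) and each glial inward rectifier subunit (right) in the 8 libraries (x axis). Atp1b1 made up 61.2% to 74.4% of the beta total, and the extreme shares of Atp1b2 and Kcnj10 are those of libraries 5 and 6.

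Het-labelled library 6 stood apart in genes of the stria vascularis. The markers of strial marginal cells, which secrete potassium into endolymph, summed to 16226 normalized counts there and to 2868 to 7295 in the other 7 libraries, with 3 of 5 markers in the table. Melanocyte and intermediate cell markers summed to 9190.5 against 352 to 1551, with 3 of 6 in the table. Of these, the melanogenic enzyme gene Dct had 8095.3 normalized counts in library 6 and 15.7 to 992.3 in the others. None of the 6 markers in the table was at 0 in any library, and the other 5, Kcne1 among them, were not analysed here.

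Slc12a2, the sodium-potassium-chloride cotransporter NKCC1 used by the stria, was high in the same library, with 14102.0 normalized counts against 5462.3 to 7298.7 in the other 7. Among the members, Atp1b2 was 1.91 times and Kcnj10 1.28 times the median of the other 7 libraries, while Fxyd1 and Kcnj16 were 0.731 and 0.723 times theirs. Library 5, lowest in Atp1b2 and Kcnj10, also had the lowest sums of marginal cell (2868), astrocyte (9478) and oligodendrocyte (9408) markers. The part of strial or glial tissue in these levels was not tested. With library 6 left out, the log2 fold change of Fxyd1 was -0.46, with a BH-adjusted limma p of 0.315.

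**Figure D4:**
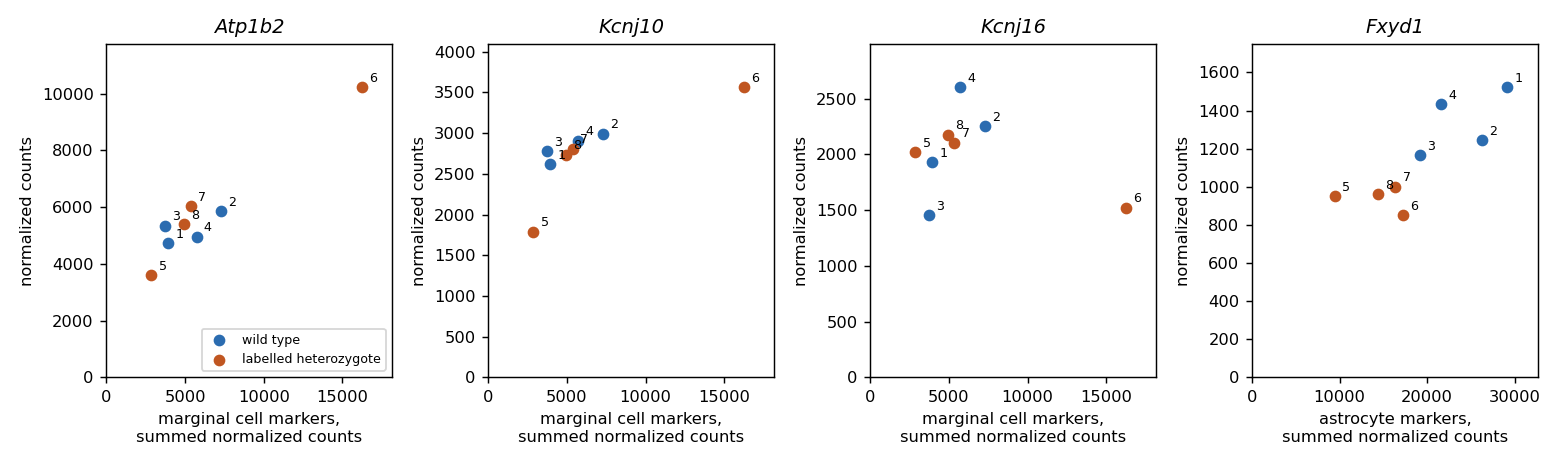
Normalized counts of Atp1b2, Kcnj10 and Kcnj16 (y axes) against the summed normalized counts of strial marginal cell markers, and of Fxyd1 against astrocyte markers (x axes), 1 numbered point per library, blue for wild type and orange for labelled heterozygote. Library 6 lies far right at 16226 marker counts, high in Atp1b2 and Kcnj10 and low in Kcnj16.

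Over the 8 libraries and 15 pairs, 0 correlations had an adjusted permutation p under 0.05, and 1 had an unadjusted p under 0.05. This was Atp1b2 with Kcnj10, with a Pearson r of 0.87 (exact permutation p 0.0206, adjusted 0.308) and a Spearman rho of 0.79 (exact permutation p 0.0279, adjusted 0.419). Without libraries 5 and 6, the farthest from the median of Atp1b2, r was 0.53, so the relation rests on those libraries. With the genotype means removed, and all 8 libraries, r was 0.95, as a description. Atp1b1 and Fxyd1 had an r of -0.62 (exact permutation p 0.0807, adjusted 0.605) and a rho of -0.62 (exact permutation p 0.115, adjusted 0.862). Their r was -0.58 without wild-type libraries 1 and 3, and -0.86 with the genotype means removed. Fxyd1 and Kcnj16 had an r of 0.37 (exact permutation p 0.361, adjusted 0.676) and a rho of 0.31 (exact permutation p 0.462, adjusted 0.977). Their r was 0.18 without wild-type libraries 1 and 4, and 0.64 with the genotype means removed. Kcnj10 and Kcnj16 had an r of -0.19 (exact permutation p 0.634, adjusted 0.792) and a rho of 0.19 (exact permutation p 0.665, adjusted 0.977). Without the 2 libraries farthest from the median of Kcnj10 their r was 0.45.

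For each member, the 3 genes with the most similar log2 levels over the 8 libraries were found among 13350 genes by Pearson r, as a description. For Fxyd1 these were Chst1, Dpp7 and Acyp2, with r of 0.99, 0.98 and 0.98. For Atp1b1 they were Rnft2, Pik3c3 and Sec24b, at 0.99, 0.98 and 0.98. Atp1b2 was nearest to Dclk1, Enpep and Chpt1 (0.96, 0.95 and 0.95), and Atp1b3 to Slc47a1, Cited1 and Ptgds (0.98 each). Kcnj10 was nearest to Rad17, H2bc4 and Maob (0.97, 0.94 and 0.93), and Kcnj16 to Gramd1c, Tspan12 and P2rx2 (0.99, 0.97 and 0.96). No gene was named for 2 members. Chst1, Dpp7 and Acyp2 were themselves lower in the Het-labelled libraries without overlap, with log2 fold changes of -0.48, -0.29 and -0.44. Their likeness to Fxyd1 thus includes the difference between genotypes. Dclk1, Enpep and Chpt1, like Atp1b2, were highest in library 6, with 4864.5, 2520.7 and 1871.6 normalized counts.

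The other genes of the pump were read from the same fit. Of 15 listed, 12 were tested and 0 passed the limma-trend threshold. 2 had an unadjusted p under 0.05, both lower, where 7.34% of all tested genes were. They were Nkain1, for a pump-interacting membrane protein (log2 fold change -0.60), and Fxyd6, a relative of phospholemman (-0.25), with BH-adjusted limma p of 0.325 and 0.343. Fxyd6 had 9336.8 to 11753.6 normalized counts in wild type and 8186.8 to 10610.2 in the Het-labelled libraries, so the groups overlapped. Fxyd3, which also codes for an FXYD protein, had a log2 fold change of -0.30 and a BH-adjusted limma p of 0.464. The median of the 12 genes was -0.17.

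Of 13 other inward rectifier genes, 9 were tested, 0 passed, and the median log2 fold change was 0.20. Kcnj2, for Kir2.1, which sets the resting potential of many cells, had a log2 fold change of 0.60, an unadjusted p of 0.0414 and a BH-adjusted limma p of 0.341. It was the 1 gene of the list with an unadjusted p under 0.05, in the direction in which 6.72% of all tested genes had one. Kcnj13, Kcnj15 and Kcnj14 came next, at 0.36, -0.41 and 0.32, with BH-adjusted limma p of 0.534, 0.569 and 0.607.

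All 11 cation-chloride cotransporter and kinase genes were tested and 0 passed, with a median log2 fold change of 0.18. Of them 10 of 11 were above 0, where 7771 of all 14870 tested genes were. Log2 fold changes rose with transcript length over all genes with a length (Spearman rho 0.43). The part of length in this list was not tested. Wnk2, for a kinase that regulates these cotransporters, had 1454.8, 2395.6, 3125.7 and 2125.8 normalized counts in wild type and 3533.5, 3398.9, 3187.2 and 3617.3 in the Het-labelled libraries. The groups did not overlap, with a log2 fold change of 0.64, an unadjusted p of 0.00398 and a BH-adjusted limma p of 0.232. Slc12a2 was at 0.43, with a BH-adjusted limma p of 0.373 and its highest value in library 6. Slc12a5, the neuronal cotransporter KCC2, was at -1.08 with a BH-adjusted limma p of 0.401.

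Among 18 partners of glial potassium and water handling, all tested, 0 passed. 6 had an unadjusted p under 0.05, of which 4 were lower and 2 higher, against 7.34% and 6.72% of all tested genes. Mlc1 and Hepacam encode partner membrane proteins of astrocyte junctions, and neither overlapped between genotypes. Mlc1 had 1700.1, 1325.6, 933.1 and 1095.5 normalized counts in wild type and 549.6, 697.9, 679.5 and 480.1 in the Het-labelled libraries. The genes had log2 fold changes of -1.05 and -0.58, each with a BH-adjusted limma p of 0.0632. Dag1, for the dystroglycan that anchors glial endfeet, was at 0.35 with a BH-adjusted limma p of 0.278. The median over the list was -0.11. Mlc1 and Hepacam are expressed by astrocytes, whose marker sums were lower in the Het-labelled libraries, and the part of those cells was not tested. Kcnj10, whose product serves both glia and the stria vascularis, was at -0.094, with its lowest value in library 5 and its highest in library 6. The part of either tissue in its level was not tested.

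**Figure D5:**
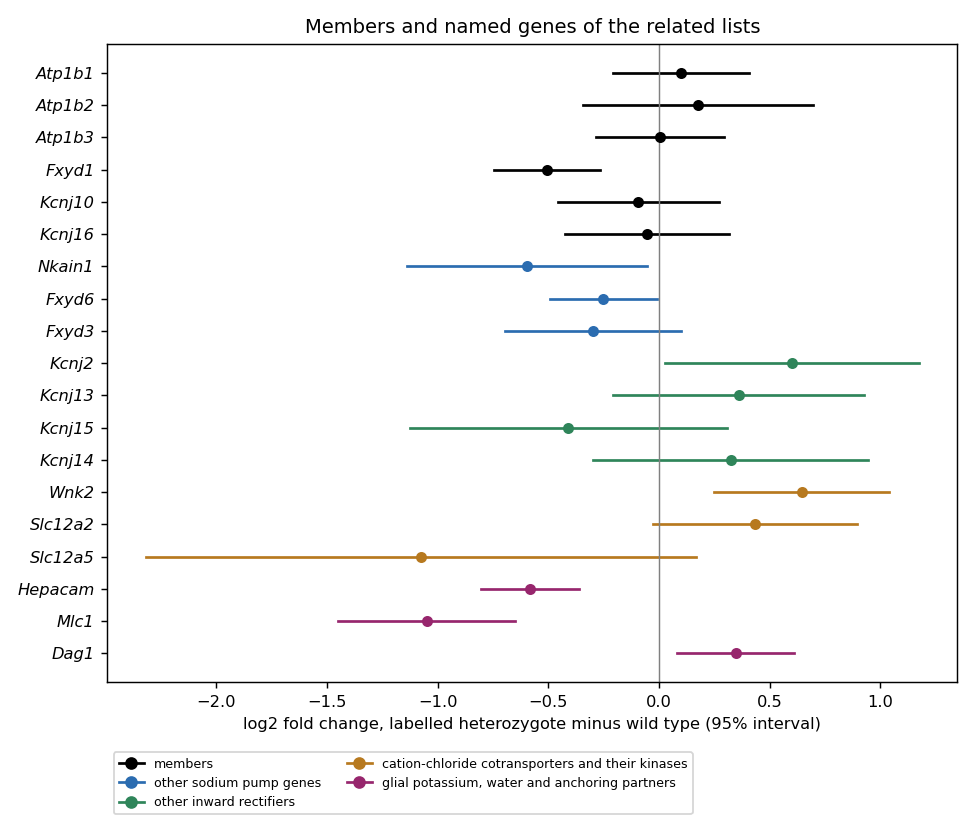
Log2 fold change (points) with its 95% interval (lines) for the 6 members and for genes with the smallest p of each related list (y axis), between libraries labelled heterozygote and wild type (x axis). Fxyd1, at -0.50, is the 1 member whose interval leaves out 0, and Mlc1 lies below -1.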

How the data were processed

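Gene values were deposited by the authors as a normalized signal per library, given to 1 decimal. Most values under 1000, but not all, behaved as read counts divided by a size factor, as given below. The submitters' processing notes name STAR, Partek, DESeq2 and mm10; counting, strand use and annotation are not given in the sources used here. The authors' deposited p-value, FDR, ratio and log2 ratio were read as theirs; the authors' signed fold change, a score, was not used. Of values under 1000, 88.5% to 91.8% were whole multiples (within 0.05) of an estimated value of 1 read, where 7.72% to 12.7% would be whole at random. The share needed for a count test is 95%, so none was run, and the step gave the depths. Counting error was not modelled.

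Genes with at least 10 in at least 4 libraries were fitted as log2(value + 1) by limma-trend over the 8 libraries with genotype as the only term. P-values were Benjamini-Hochberg (BH) adjusted over all 14870 genes. Fold changes on this scale understate low genes. Single comparisons used exact permutation tests. On simulated counts for the same 14870 genes with 200 changed, limma-trend recovered 64% of 2-fold and 92% of 4-fold changes, with 6 unchanged genes called. Lengths and positions came from GENCODE M21 (GRCm38, the longest transcript), promoters from RefSeq. Named genes were the members, up to 4 genes per related list by smallest p (some are not reported here), and the 3 most similar genes per member with a mean of at least 50. Members and lists were chosen with earlier results of these data known, and shares per kilobase were computed after seeing the values. Alternatives were other filters, pseudocounts (0.1 and 10), scalings, a length correction, quality weights, covariates and left-out libraries. Software was limma 3.58.1 in R 4.3.3, and numpy 2.4.6, pandas 2.3.3 and matplotlib 3.10.9 in Python 3.11.15.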

Additional observations from a re-analysis of the deposited data

Results flagged for a closer look

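A gap test for a single distant library, applied to 52 sets of 4 values, picked out 2, where about 2.6 would be picked out at random. Slc12a2 had 14102 normalized counts in library 6, while the other Het-labelled libraries had 6166.5 to 7298.7, a gap of 0.857 of the group's range. Dag1 had 6086 in library 8, with 5046.6 to 5154.2 in the rest of the group, a gap of 0.896. None of the 6 members and none of the 3 ratios within a library stood out in this way.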

How the results depend on the processing

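The count of genes past the limma-trend threshold, 12 as reported, was 7 with quantile normalization, 27 with the length correction, 96 with sample quality weights and 576 with the leading residual component as a covariate. Leaving out each library in turn gave 0 to 221. It was 0 without libraries 2, 4 or 8 (limma-trend; at an unadjusted p under 0.05 these fits gave 1919, 1451 and 1180 genes), 221 without wild-type library 3, 7 without library 5 and 6 without library 7. The cause was not tested.

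Fxyd1 had a log2 fold change of -0.50 with a BH-adjusted limma p of 0.0243 when that component was added. With each library left out it ran from -0.57 to -0.44, with adjusted p from 0.0365 to 0.487. The other 5 members passed under no alternative, and their directions turned. Without the 2 libraries low in Xist, Atp1b1 was at -0.044 and Kcnj10 at 0.059, and with upper-quartile scaling Atp1b3 was at -0.011. With each library left out, Atp1b1 ran from -0.021 to 0.19, Atp1b2 from -0.089 to 0.41, Atp1b3 from -0.090 to 0.11, Kcnj10 from -0.24 to 0.094 and Kcnj16 from -0.21 to 0.068. For the ratios within a library, the difference between genotypes with each library left out ran from -0.17 to 0.34 (Atp1b2 to Atp1b1), -0.21 to 0.13 (Atp1b3 to Atp1b1) and -0.30 to 0.17 (Kcnj10 to Kcnj16). Without the libraries low in Xist they were 0.41, 0.16 and 0.15, in that order. None passed. No paired analysis was possible because the genotypes share no replicate numbers.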

Other observations

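The level of phospholemman was also set against that of the beta subunits, a measure chosen after the values were seen. Per kilobase of the longest transcript, Fxyd1 stood at 14.7%, 10.1%, 8.94% and 12.7% of the summed level of Atp1b1, Atp1b2 and Atp1b3 in the wild-type libraries. In the Het-labelled libraries it stood at 7.76%, 6.08%, 8.40% and 8.36%. The groups did not overlap, and no test was made of this measure. Fxyd1 alone already did not overlap, so the measure is not separate support. The longest Fxyd1 transcript has 668 bases, against 1994 to 3751 for the beta subunits. The part of the trend with transcript length in this measure was not tested.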
